A study of Mus musculus with 8 samples.

Results

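The genes described are 10 genes of MHC antigen presentation, chosen by symbol: the class I genes H2-K1, H2-D1 and B2m, the class II genes H2-Aa, H2-Ab1, H2-Eb1, H2-DMa and Cd74, and the transactivators Ciita and Nlrc5. All 10 were in the deposited table of 14317 mouse genes, and all 10 passed the filter on low values (a mean normalised read count of at least 10). Their mRNA was compared between vehicle-treated and DHT-treated female mice (Con-Veh and Con-DHT, 4 livers each), with 1 library of total RNA per mouse. The question of the comparison was how dihydrotestosterone (DHT), an androgen that is not converted to estrogen, changes gene expression in the female liver under a Western diet (WD).

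The mice of both groups are labelled WT. At 7 weeks of age they received a silastic pellet, empty in Con-Veh and filled with 10 mm of DHT in Con-DHT, and both groups ate a WD rich in fat, fructose and cholesterol for 8.5 weeks. The livers were taken after an overnight fast. The strain, and with it the MHC haplotype, is not given in the sources used here. The labelled tissue was checked against hepatocyte markers, of which Alb, the albumin gene, took between 3.53% and 8.23% of the reads on genes in every library.

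MHC class I molecules sit on nearly all nucleated cells and show peptides from inside the cell to CD8 T cells. A class I molecule is a heavy chain, here from H2-K1 or H2-D1, bound to the light chain beta-2 microglobulin from B2m. Class II molecules, made of an alpha and a beta chain, show peptides from engulfed material to CD4 T cells and are made chiefly by dendritic cells, B cells and macrophages. In the liver those are a small minority beside the hepatocytes. The invariant chain Cd74 guides class II molecules through the cell, and H2-DM removes the leftover of that chain from the groove. Ciita and Nlrc5 bind no DNA themselves but switch on class II and class I genes, respectively, from a promoter module of W/S, X and Y boxes, to which the RFX complex, CREB-like proteins and NF-Y bind.

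That module is why the promoters are shown first. RefSeq promoter windows of GRCm38.p6, reaching from 250 bases before to 50 bases after a transcription start, were matched by symbol for 6 of the 10 genes (H2-K1, H2-D1, B2m, H2-Aa, H2-Eb1 and H2-DMa) and gave 8 windows. The 180 bases before the start of 3 class I and 2 class II genes are printed on the strand of the gene, 5′ to 3′, with the motif matches in capitals. The first motif searched was TGACG, the core of the X2 box. The next was CCAAT, the core of the Y box, which reads ATTGG on the other strand. The last was GAAA followed after any 2 bases by GAAA, an interferon response core. All were searched on both strands.
H2-K1 (chr17:34000334-34000513, minus strand): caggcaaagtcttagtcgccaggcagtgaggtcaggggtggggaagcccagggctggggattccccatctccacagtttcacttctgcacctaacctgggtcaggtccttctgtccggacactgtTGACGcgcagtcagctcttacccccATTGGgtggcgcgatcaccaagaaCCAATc
H2-D1 (chr17:35262914-35263093, plus strand): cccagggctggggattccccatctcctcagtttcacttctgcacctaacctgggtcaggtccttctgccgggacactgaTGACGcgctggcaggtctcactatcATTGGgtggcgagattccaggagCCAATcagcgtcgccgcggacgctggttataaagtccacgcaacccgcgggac
B2m (chr2:122147507-122147686, plus strand): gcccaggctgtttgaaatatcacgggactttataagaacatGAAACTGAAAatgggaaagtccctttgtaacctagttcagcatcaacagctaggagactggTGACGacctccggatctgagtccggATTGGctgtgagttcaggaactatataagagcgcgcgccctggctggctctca
H2-Aa (chr17:34287824-34288003, minus strand): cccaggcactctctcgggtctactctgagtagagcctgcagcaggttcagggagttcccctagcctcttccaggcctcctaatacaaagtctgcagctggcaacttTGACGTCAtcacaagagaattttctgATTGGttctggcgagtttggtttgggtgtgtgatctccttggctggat
H2-Eb1 (chr17:34305687-34305866, plus strand): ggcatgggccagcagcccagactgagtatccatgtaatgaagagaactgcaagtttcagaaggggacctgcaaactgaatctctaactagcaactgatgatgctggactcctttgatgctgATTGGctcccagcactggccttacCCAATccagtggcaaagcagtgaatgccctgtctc

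In H2-K1, H2-D1 and B2m, TGACG was followed by ATTGG with 25 bases between their first letters, and in H2-Aa with 26. Of 32544 windows of all genes, 31 (0.0953%) held that pair on the strand of the gene at 25 or 26 bases. The distances were read from these same promoters, and the 31 include their windows. The share is therefore no independent measure of how rare the pair is. Taken singly, CCAAT was in 37.4% of all windows and TGACG in 20.9%, with the 2 overlapping TGACG matches of H2-Aa in the palindrome TGACGTCA. An exact match to the interferon response core was in B2m, of the 6 genes, and in 3.45% of all windows. Near matches were not searched, so the other genes cannot be said to lack an interferon response element. H2-Eb1 held CCAAT on both strands and no TGACG in its window. Within the printed stretches, the longest run that H2-K1 and H2-D1 shared exactly was 40 bases, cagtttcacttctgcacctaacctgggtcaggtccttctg, which was in no window of another gene. The matches describe letters only, since no binding was measured.

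Per length, the genes spanned about 4 orders of size, and the class I genes stood far above the class II genes. The normalised read count per kilobase of exon was 21358 ± 1270.1 for B2m, 8290.5 ± 472 for H2-K1 and 5243 ± 727 for H2-D1 in Con-Veh (SD, n = 4). Cd74 came next at 524 ± 71.9, ahead of the class II chains H2-Eb1 (157 ± 26.4), H2-Ab1 (148 ± 24.8) and H2-Aa (74.5 ± 13.4). Nlrc5 stood at 70.5 ± 7.31, H2-DMa at 22.1 ± 1.37 and Ciita at 2.13 ± 0.711. Over the 8 livers the ranges of the neighbours H2-Eb1 and H2-Ab1, of H2-Ab1 and H2-Aa, and of H2-Aa and Nlrc5 overlapped, and those of the other neighbours did not. Lengths were the union of annotated exons, and with the longest transcript instead H2-Ab1 moved to 313 in Con-Veh, above H2-Eb1 at 182.

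**Figure D1:**
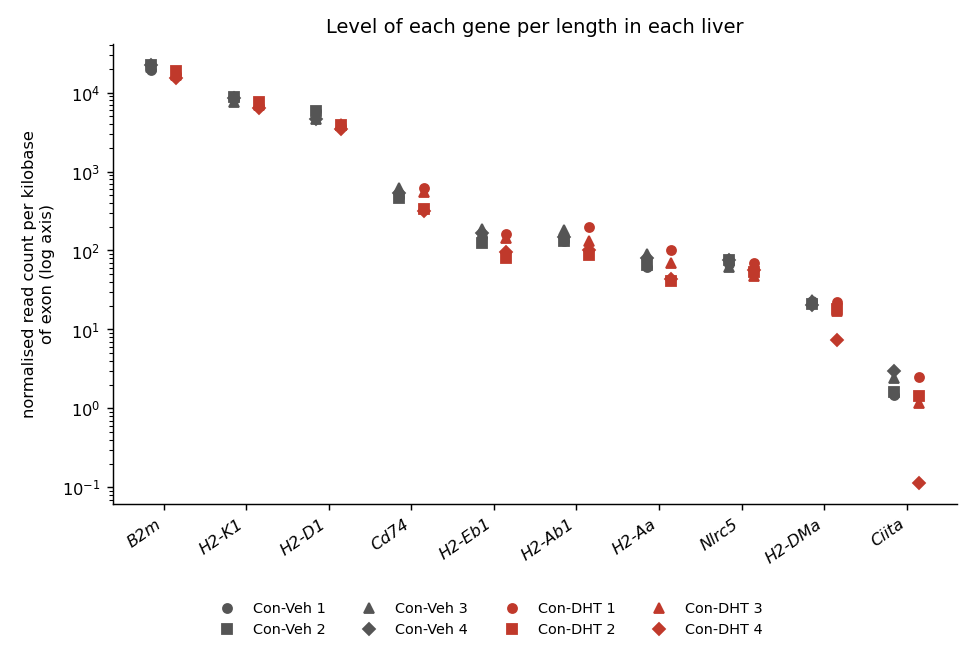
Normalised read count per kilobase of exon (log axis) of each of the 10 genes in each liver, with Con-Veh in grey, Con-DHT in red and a marker shape for each replicate number. B2m, H2-K1 and H2-D1 lie above all class II genes in every liver, and Ciita lies lowest.

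All 10 genes had a fitted log2 fold change below 0 (Con-DHT against Con-Veh), with a median of -0.33, while the median over all 14312 genes tested was -0.0081 and 51.5% of them lay below 0. The threshold was an adjusted p of 0.05 by limma on log2 of the value + 1, adjusted by Benjamini-Hochberg over all genes tested. Of the 10, 1 passed, H2-D1, while 7.21% of all genes passed in either direction, 2.61% as lower and 4.60% as higher in Con-DHT. At an unadjusted p of at most 0.05, 4 of the 10 were lower (H2-K1, H2-D1, B2m and Nlrc5), against 11.0% of all genes and 23.2% in either direction. The groups did not overlap for H2-K1, H2-D1 and B2m, each lower in all Con-DHT livers, and this held for 6.62% of all genes in that direction and 15.1% in either. Within Con-DHT, the class II genes were spread more widely around their means than H2-K1, H2-D1 and B2m, which did not hold for every gene within Con-Veh. These were bulk samples, in which fewer cells of a type and less RNA per cell cannot be told apart.

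**Figure D2:**
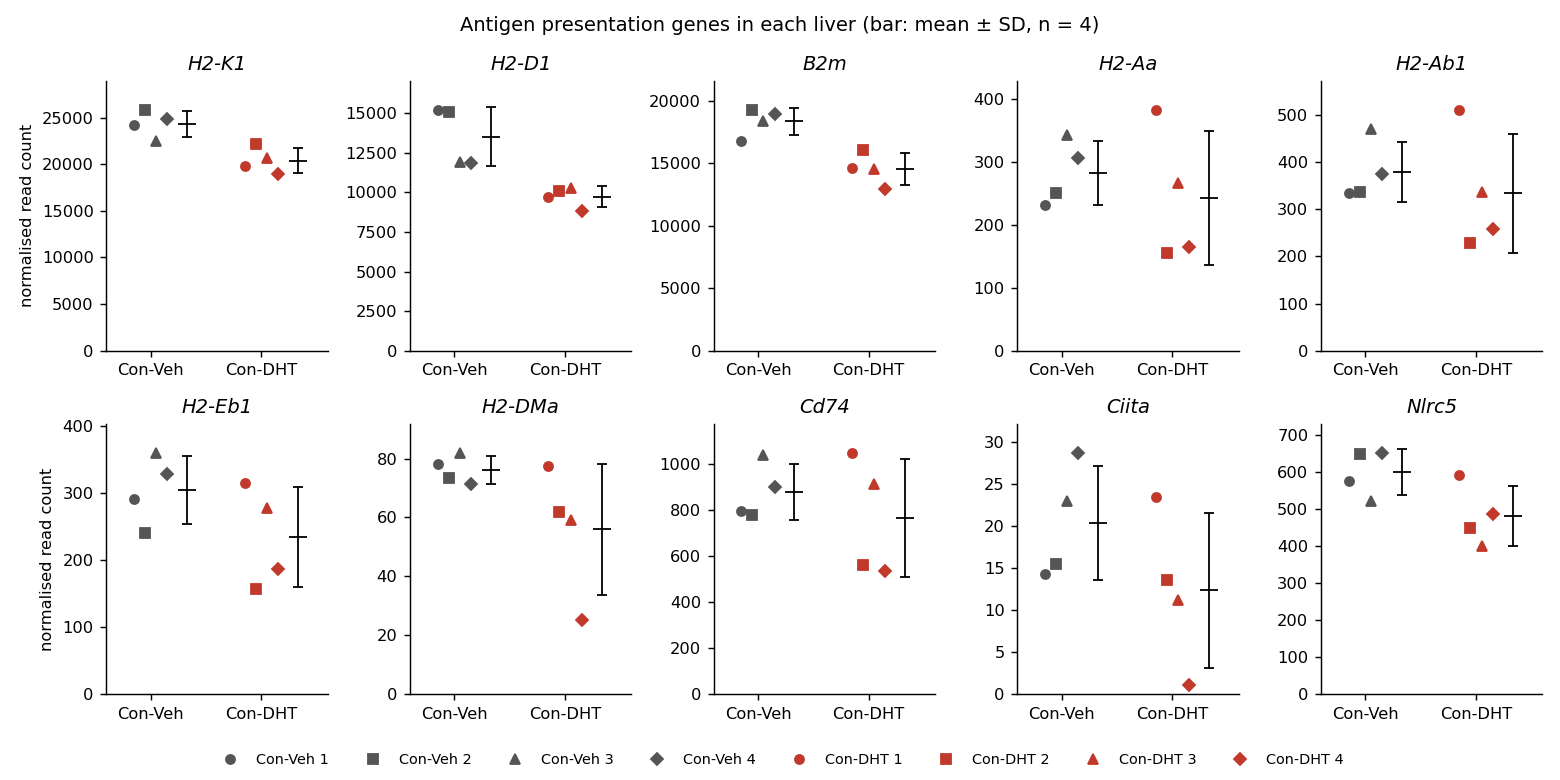
Normalised read count of each of the 10 genes (vertical axes from 0) in each Con-Veh (grey) and Con-DHT (red) liver, with the mean ± SD of the 4 mice as a bar. The groups are apart for H2-K1, H2-D1 and B2m, and overlap for the other 7 genes, where Con-DHT 1 is the highest of its group.

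H2-D1, a classical class I heavy chain on chromosome 17, had normalised read counts of 15216.5, 15069, 11940.3 and 11859 in Con-Veh 1 to 4. In Con-DHT 1 to 4 they were 9738, 10083, 10310.1 and 8826. All Con-DHT livers lay below all Con-Veh livers, and the Con-Veh livers formed a high pair and a low pair. H2-D1 fell from 13521 ± 1874 to 9739 ± 653 (SD, n = 4), or by 28%, with a log2 fold change of -0.47 (SE 0.11, limma adjusted p = 0.032). The call held with edgeR (adjusted p = 0.032, 7.15% of all genes called and 2.46% as lower) and DESeq2 (0.00091) on whole reads. The settings in which it did not hold included scaling to the ERCC spike-ins (-0.27, adjusted p = 0.92), an equal total without Mup genes (0.057), a fit without the intensity trend (0.056), and leaving out any of Con-Veh 1, Con-Veh 2, Con-DHT 1, Con-DHT 2 or Con-DHT 4 (adjusted p between 0.068 and 0.09).

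H2-K1, the other classical heavy chain gene, had values of 24244, 25823.5, 22522 and 24840.1 in Con-Veh 1 to 4 and of 19823, 22149, 20624 and 18925 in Con-DHT 1 to 4. The lowest Con-Veh liver stood just above the highest Con-DHT liver. The means were 24357 ± 1386 and 20380.4 ± 1368 (SD, n = 4), with a log2 fold change of -0.26 (SE 0.10, limma adjusted p = 0.14). B2m, whose product every class I heavy chain needs to reach the cell surface, had values of 16829, 19281, 18377 and 18983 in Con-Veh and of 14651, 16091, 14538.5 and 12975 in Con-DHT. As for H2-K1, the groups were apart and Con-DHT 4 was the lowest. The means of B2m were 18368 ± 1092 and 14564 ± 1274 (SD, n = 4), with a log2 fold change of -0.34 (SE 0.10, limma adjusted p = 0.066). DESeq2, which called 11.0% of all genes and 4.51% as lower, called both H2-K1 (adjusted p = 0.017) and B2m (0.0034), and edgeR called neither (0.13 and 0.066).

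Summed over H2-K1, H2-D1 and B2m, class I values were 56289.7, 60174, 52839 and 55682 in Con-Veh 1 to 4 and 44212, 48324, 45473 and 40726 in Con-DHT 1 to 4. The sum was lower by 20.6% in Con-DHT and the groups were apart. Nlrc5, the class I transactivator, had values of 575, 648, 522 and 651 in Con-Veh and of 591, 448, 401 and 486 in Con-DHT. Its groups overlapped through Con-DHT 1, and 3 of the 4 Con-DHT livers lay below all Con-Veh livers. Its means were 599 ± 62.1 and 481 ± 80.6 (SD, n = 4), with a log2 fold change of -0.32 (SE 0.12, limma adjusted p = 0.15).

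The class II chains were within the spread of the mice. H2-Aa, the alpha chain of I-A, had values of 232, 251, 343 and 305 in Con-Veh 1 to 4 and of 383, 155, 266 and 165 in Con-DHT 1 to 4. H2-Ab1, its beta chain, had 335, 337, 471 and 376 in Con-Veh and 511, 228, 338 and 258 in Con-DHT. H2-Eb1, the beta chain of I-E, had 290.2, 240.3, 359 and 328 in Con-Veh and 315, 157, 278 and 187 in Con-DHT. The 3 genes ranked the Con-DHT mice in the same order at the top, with Con-DHT 1 the highest and Con-DHT 3 next, and Con-Veh 3 was the highest Con-Veh liver for each. Con-DHT 1 exceeded all Con-Veh livers in H2-Aa and H2-Ab1, while Con-DHT 2 and 4 lay below all of them in all 3 genes.

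The means of H2-Aa were 283 ± 51.0 and 242 ± 106 (log2 fold change -0.31, SE 0.27), those of H2-Ab1 380 ± 63.8 and 334 ± 127 (-0.24, SE 0.23), and those of H2-Eb1 305 ± 51.3 and 234 ± 74.4 (-0.42, SE 0.22), with limma adjusted p-values of 0.54, 0.57 and 0.28 (SD, n = 4). The 95% intervals of these log2 fold changes reached from -0.89 to 0.28, from -0.75 to 0.26 and from -0.90 to 0.06. All 3 intervals held 0 and the median of all genes, so a difference was not detectable with these mice.

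Cd74, the invariant chain on chromosome 18, had values of 795, 779, 1040.2 and 903 in Con-Veh 1 to 4 and of 1049, 562, 914 and 536 in Con-DHT 1 to 4. It repeated the pattern of the chains, with Con-DHT 1 just above the highest Con-Veh liver and Con-DHT 2 and 4 below all of Con-Veh. Its means were 879 ± 121 and 765 ± 256 (SD, n = 4), with a log2 fold change of -0.25 (SE 0.21, limma adjusted p = 0.52). Summed over H2-Aa, H2-Ab1, H2-Eb1 and Cd74, class II values were 1652, 1607, 2214 and 1912 in Con-Veh and 2257, 1102, 1796 and 1146 in Con-DHT. Of the 8 livers, the highest and the lowest sums were both in Con-DHT. Without Con-DHT 1 the log2 fold changes were -0.56 for H2-Aa, -0.47 for H2-Ab1, -0.58 for H2-Eb1 and -0.42 for Cd74, and without Con-DHT 2 they were -0.12, -0.09, -0.25 and -0.12, none of them called.

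H2-DMa, a subunit of the peptide-loading chaperone H2-DM, had values of 78.1, 73.3, 81.9 and 71.4 in Con-Veh 1 to 4 and of 77.5, 61.9, 59.2 and 25 in Con-DHT 1 to 4. The Con-Veh livers were close together, and Con-DHT 2, 3 and 4 lay below them. Its means were 76.2 ± 4.72 and 55.9 ± 22.1 (SD, n = 4), with a log2 fold change of -0.55 (SE 0.30, limma adjusted p = 0.30). Ciita, the class II transactivator, was the lowest of the 10 genes, with values of 14.3, 15.4, 22.96 and 28.7 in Con-Veh and of 23.5, 13.5, 11.2 and 1.09 in Con-DHT. These rest on 13 to 33 reads per Con-Veh library and on 24, 14, 11 and 1 reads in the Con-DHT libraries. Its log2 fold change was -1.07 (SE 0.66, limma adjusted p = 0.37), the lowest of the 10, and was -0.33 without Con-DHT 4, the library with 1 read. On whole reads the log2 fold change of Ciita was nearer 0, -0.70 by edgeR and -0.72 by DESeq2, and neither called it.

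**Figure D3:**
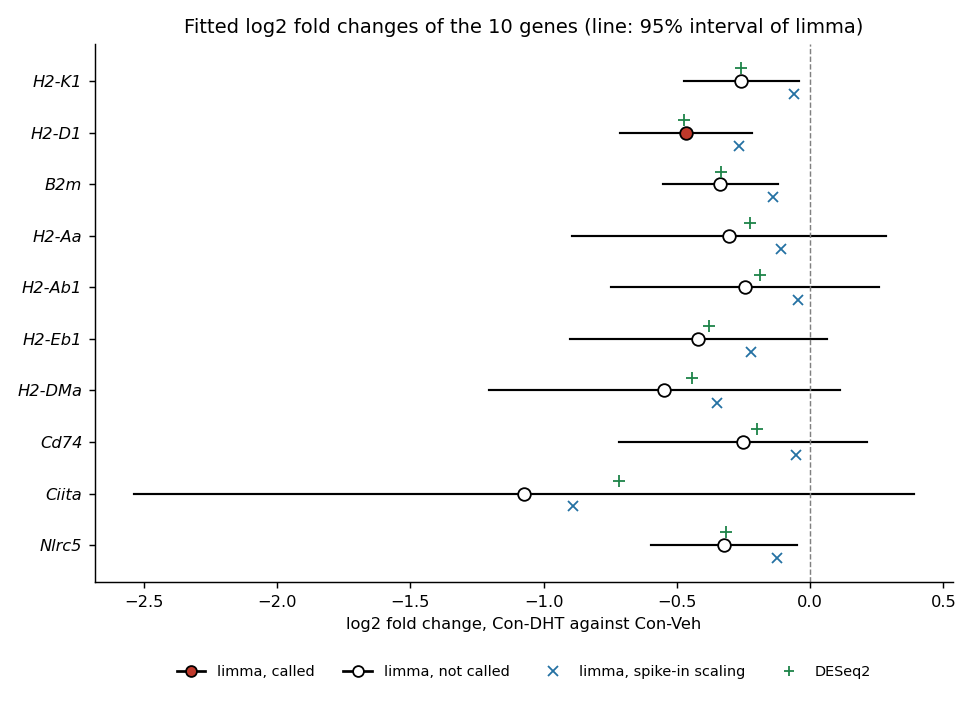
Log2 fold change of each gene in Con-DHT against Con-Veh with its 95% interval by limma (circle, filled where called), beside the value with spike-in scaling (cross) and by DESeq2 (plus). Every value lies below 0, the interval of H2-D1 ends at -0.22, and spike-in scaling moves all genes towards 0.

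Each gene stayed below 0 under every scaling tried, but the scaling set how far. With the spike-ins the median of all tested genes was 0.19 rather than -0.0081, the median of the 10 was -0.13 and their distance from the median of all genes was -0.32, as in the main comparison (-0.32). H2-D1 lay at -0.46 relative to that median in the main comparison and at -0.45 with the spike-ins. Spike-in scaling applied the same factor to all genes of a library, so it shifted all log2 fold changes by nearly the same amount. These distances therefore had to stay nearly unchanged, and their likeness is not a test of the genes or of the scaling.

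The other genes of the pathway were described from lists, most of which hold some of the 10 genes as well. Of 15 class I heavy chain genes tested, 5 fell and none rose, against 2.61% lower over all genes, and the list had a median of -0.40 on the log2 scale. Beside H2-D1 these were 4 nonclassical (class Ib) genes. H2-Q4 had values of 1019, 991, 908 and 978 in Con-Veh and of 745, 656, 719 and 646 in Con-DHT (log2 fold change -0.50, SE 0.07, limma adjusted p = 0.0037). H2-T23, whose product Qa-1 shows leader peptides of class I molecules to receptors of NK cells, had 3647, 3413, 3196 and 3569 in Con-Veh and 2375, 2782, 2643 and 2262 in Con-DHT (-0.46, SE 0.08, adjusted p = 0.0098). For both genes every Con-DHT liver lay below every Con-Veh liver.

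H2-Q6 fell from 964 ± 215 to 577 ± 11.2 (SD, n = 4, log2 fold change -0.72, limma adjusted p = 0.009) and H2-T10 from 191 ± 26.1 to 121 ± 28.1 (-0.67, adjusted p = 0.041). The calls of H2-Q4, H2-Q6 and H2-T23 held with each mouse left out in turn and in 10 of 11 other alternatives, all but spike-in scaling. The call of H2-T10 held with 1 of the 8 mice left out, Con-DHT 3. H2-Q2 had the largest log2 fold change of the list, 1.17, at low values (12.5 ± 5.64 and 29.8 ± 14.0) and was not called by limma (adjusted p = 0.097) but was called as higher by DESeq2 (1.25, adjusted p = 0.048). H2-Q10, a secreted class I molecule made by hepatocytes, had 16412 ± 483 in Con-Veh and 18304 ± 3159 in Con-DHT (0.14, adjusted p = 0.56). Genes of the H2-K, H2-D, H2-Q and H2-T families are alike in sequence and only uniquely mapped reads were counted, so the values of each are uncertain.

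Of 9 genes that load class I molecules in the endoplasmic reticulum, none was called in limma (2 at an unadjusted p of at most 0.05, edgeR 0, DESeq2 1, which was B2m), with a median of -0.15. Tap1, a subunit of the peptide transporter, had the largest value, 0.02 (496 ± 52.0 and 503 ± 66.6, adjusted p = 0.95), and B2m the lowest. Of the 5 immunoproteasome genes, which cut the peptides for class I, 1 was called, against 2.61% lower over all genes. It was Psme1, which fell from 958 ± 46.0 to 782 ± 20.3 (SD, n = 4, log2 fold change -0.29, SE 0.06, limma adjusted p = 0.023). Psme1 encodes a subunit of the PA28 activator. The catalytic subunit gene Psmb10 had the lowest value of the list (-0.51, adjusted p = 0.062) and was called by DESeq2 but not edgeR, and Psmb9 had the highest (-0.06, adjusted p = 0.88), which turned to 0.14 with spike-in scaling.

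Of 6 class II chain and chaperone genes tested, 5 of which are among the 10 genes, none was called in limma (1 at an unadjusted p of at most 0.05, edgeR 0, DESeq2 0). The values lay between -0.55 for H2-DMa and -0.24 for H2-Ab1. Of 8 class II processing and turnover genes, 4 fell and 1 rose, against 2.61% lower and 4.60% higher over all genes, with a median of -0.46 beside -0.36 for the chains and chaperones. Ctss, the cathepsin that cuts the invariant chain in antigen-presenting cells, had values of 552, 540.5, 577 and 530.0 in Con-Veh and of 438, 350.3, 436 and 375 in Con-DHT (log2 fold change -0.47, SE 0.09, limma adjusted p = 0.013). Ctss was lower in every Con-DHT liver, Con-DHT 1 included.

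Lgmn, an endosomal protease, fell from 1393 ± 86.9 to 1015 ± 106 (log2 fold change -0.46, adjusted p = 0.013), Ctsb, a lysosomal cathepsin, from 12515 ± 1051 to 9096 ± 820.05 (-0.46, adjusted p = 0.02), and Ifi30, a thiol reductase that opens disulfide bonds of antigens, from 214 ± 50.04 to 133 ± 10.1 (-0.65, adjusted p = 0.035; SD, n = 4, limma). Hepatocytes express Ctsb and Lgmn too. March8, a ubiquitin ligase that takes class II molecules and other receptors off the surface, rose from 1733 ± 192 to 2315 ± 149.8 (SD, n = 4, log2 fold change 0.42, SE 0.09, limma adjusted p = 0.021). Its relative March1 had 52.5 ± 15.2 and 27.5 ± 6.04, with no overlap, and was not called by limma (-0.89, adjusted p = 0.052) but was called by DESeq2 (-0.93, adjusted p = 0.019).

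Of 14 genes for MHC transcription factors, Ciita and Nlrc5 among them, 1 was called, a share near the 7.21% of all genes called. Irf8, a regulator of dendritic cell and macrophage development, fell from 208 ± 16.5 to 133 ± 31.3 (SD, n = 4, log2 fold change -0.67, SE 0.16, limma adjusted p = 0.034). That call held with 1 of the 8 mice left out, Con-DHT 3. The genes of the RFX complex and of NF-Y, and Creb1, lay near 0 or below, and none of them was called. Their values ran from 0.03 for Nfyc (adjusted p = 0.89) to -0.38 for Rfxank (adjusted p = 0.22). Of 19 genes tested of the interferon-gamma response, the main inducer of both MHC classes, 3 fell and none rose, against 2.61% lower over all genes, with a median of -0.52. They were the guanylate-binding protein gene Gbp3 (-0.86, adjusted p = 0.041) and the immunity-related GTPase genes Igtp (-0.68, adjusted p = 0.028) and Irgm1 (-0.53, adjusted p = 0.048), in which the groups did not overlap. None of the 3 calls held without the intensity trend (adjusted p = 0.059 for Igtp, 0.071 for Gbp3 and 0.094 for Irgm1). The receptor chain Ifngr2 had the largest value, 0.13 (adjusted p = 0.48). With spike-in scaling none of the genes of the 7 lists that limma called kept its call, and H2-Q2 gained one as higher.

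**Figure D4:**
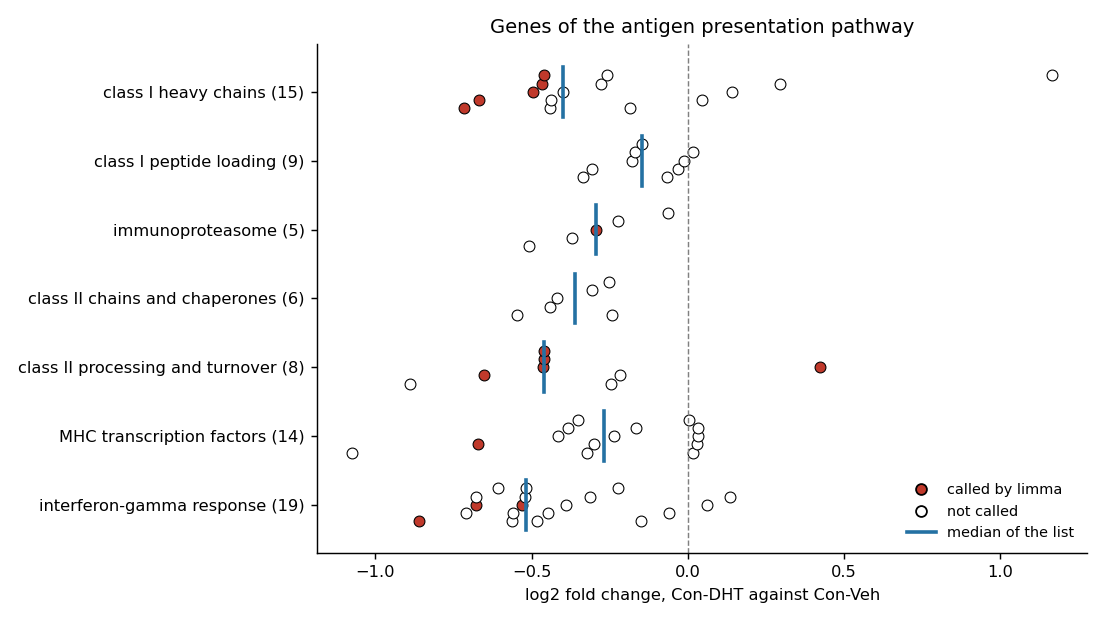
Log2 fold change (Con-DHT against Con-Veh) of each tested gene in the 7 lists, with the number tested in brackets, filled where called by limma, and the median of each list as a blue bar. The medians lie between -0.15 for class I peptide loading and -0.52 for the interferon-gamma response, and March8 is the 1 called gene above 0.

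Markers of the cells that carry class II were read beside these values. All 11 Kupffer cell markers had log2 fold changes below 0, against 51.5% of all genes. Of them 7 fell (Vsig4, Cd5l, C1qa, C1qb, C1qc, Clec4f and Folr2), against 2.61% lower over all genes. Their summed level was 9104 to 11045 in Con-Veh and 6114 to 8265 in Con-DHT. For example, Cd5l fell from 2767 ± 368 to 1529 ± 280 (SD, n = 4, log2 fold change -0.86, limma adjusted p = 0.0045). The sums did not overlap. Con-DHT 1, the mouse with the most class II mRNA in its group, had the highest Kupffer sum of its group (8265). In Con-Veh it was the other way round, since Con-Veh 3, with the highest class II sum of its group (2214), had the lowest Kupffer sum (9104). None of the 7 calls held with spike-in scaling. The part of Kupffer cell number or state in the MHC values was not tested.

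Of 6 dendritic cell markers tested, none was called in limma, edgeR or DESeq2, and none had an unadjusted p of at most 0.05. Their summed levels of 197 to 274 and of 176 to 231 overlapped. Con-DHT 1 had a dendritic sum of 184, below all Con-Veh livers, while its class II sum was above all of them. In Con-Veh the 2 sums went together at the top, since Con-Veh 3 was the highest of its group in both (274 and 2214). The marker with the highest mean was Zbtb46 (87.4 ± 16.4 and 82.7 ± 8.67, log2 fold change -0.07, adjusted p = 0.85), and Flt3, Xcr1, Cd209a and Ccr7 were not analysed here. Of 4 B cell markers none was called by limma (2 at an unadjusted p of at most 0.05) or edgeR, DESeq2 called 1 (Ebf1, higher), and their sums of 111 to 152 and of 92.9 to 166 overlapped. By limma, 3 of the 4 had a log2 fold change below 0. Cd79a and Ms4a1, which define B cells, were not analysed here. Among 5 plasma cell markers Igkc (-1.08, adjusted p = 0.042) and Igha (-2.02, adjusted p = 0.0047) fell, against 2.61% lower over all genes. The call of Igkc did not hold with edgeR (adjusted p = 0.058) and held with 1 of the 8 mice left out, while that of Igha held in every fit.

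The markers of all leukocytes summed to 675 to 824 in Con-Veh and to 475 to 619 in Con-DHT, without overlap, and 1 of 5, Cd53, fell (log2 fold change -0.70, adjusted p = 0.038). For this list and those below, the limma shares over all genes were 2.61% lower and 4.60% higher. Of 9 monocyte and lipid-associated macrophage markers, Fcgr1 (-0.79, adjusted p = 0.019), Lyz2 (-0.58, adjusted p = 0.0025) and Lgals3 (-0.81, adjusted p = 0.01) fell, each without overlap of the groups. The sums over all 9 markers, 1938 to 2070 in Con-Veh and 1537 to 2032 in Con-DHT, overlapped. Sinusoidal endothelial cells also take up and present antigen, and of their 8 markers Lyve1 (-1.26, adjusted p = 0.039) and Stab2 (-0.54, adjusted p = 0.018) fell, with sums of 4452 to 4949 and of 3294 to 4033. The call of Lyve1 did not hold with edgeR (adjusted p = 0.052) and held with 2 of the 8 mice left out. Of 2 T and NK cell markers tested, Cd4, the T cell coreceptor for class II, rose from 11.4 ± 1.77 to 30.2 ± 4.23 (SD, n = 4, log2 fold change 1.34, limma adjusted p = 0.0066). The other marker, Gzma, had a log2 fold change of -0.64 and was not called (limma adjusted p = 0.36). Cd3d, Cd3e and Cd3g were not analysed here. None of 5 cholangiocyte, 7 stellate cell and 2 neutrophil markers was called by limma (0, 1 and 1 at an unadjusted p of at most 0.05) or edgeR, and DESeq2 called 1, the neutrophil gene Prtn3 (lower). Of 7 hepatocyte markers Serpina1c rose (0.54, adjusted p = 0.016). The part of any of these in the MHC values was not tested.

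**Figure D5:**
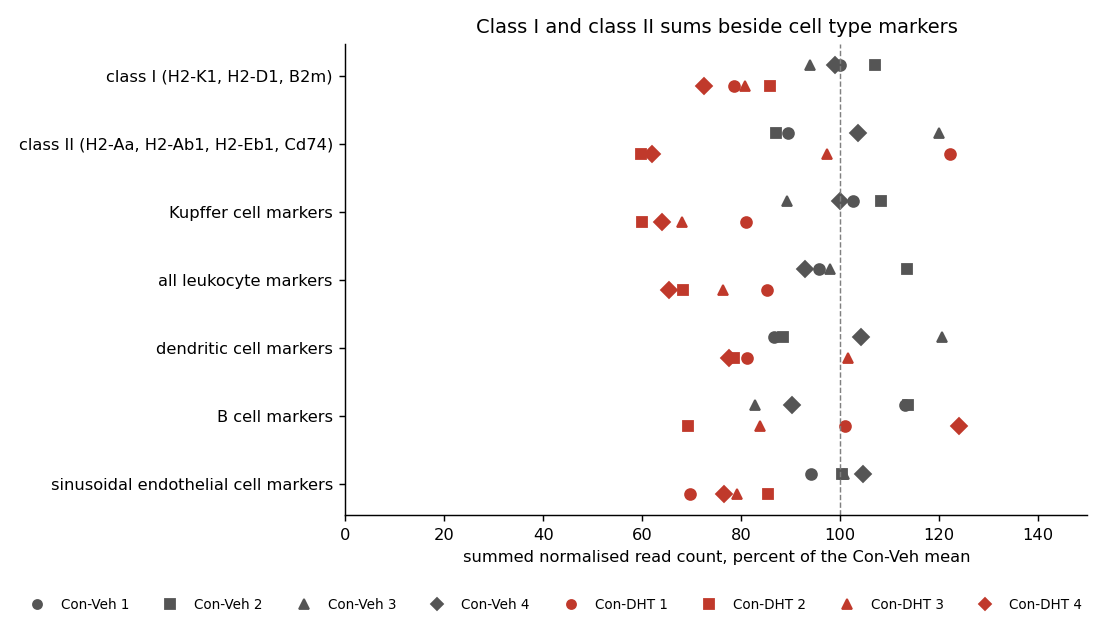
Summed normalised read counts of the class I genes, the class II genes and 5 marker lists in each liver, as a percent of the Con-Veh mean of that sum (dashed line at 100), with Con-Veh in grey, Con-DHT in red and a marker shape for each replicate number. The groups are apart for class I and for Kupffer, leukocyte and sinusoidal endothelial markers, and overlap for class II, dendritic cell and B cell markers.

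The genes whose mouse-to-mouse pattern was most like that of the class II genes were ranked over the 8 libraries after the group means were subtracted, among 10706 genes with a mean of at least 50. Kctd12 (r = 0.969), Tob1 (0.968), Gpsm3 (0.965), Zbtb1 (0.961) and Dcaf17 (0.958) came closest to the mean of H2-Aa, H2-Ab1, H2-Eb1 and Cd74. Of these, Kctd12 fell (log2 fold change -0.48, limma adjusted p = 0.038). Closest to the mean of H2-K1, H2-D1 and B2m were Vps26a (0.966), Mtrr (0.965), Fuca1 (0.963), Zfp952 (0.963) and Tmco4 (0.959), none of them called by limma. These r values describe 8 points that share libraries and depth, and were the highest of many.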

How the data were processed

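Total RNA of whole liver, with ERCC spike-in RNA added, was made into libraries with a NEBNext Ultra II kit and sequenced as paired reads; whether strand was kept or used in counting is not given in the sources used here. The authors trimmed the reads with Trimmomatic, aligned them with STAR, counted uniquely mapped exon reads with featureCounts (Subread) and used DESeq2; the submitters' processing notes name GRCm39. The deposited values are a signal: the reads of a gene divided by 1 factor per library. Each was a whole multiple of the worth of 1 read (100% within 0.01 of a whole number), which gave back 14240001 to 17815944 reads on genes per Con-Veh and 13123962 to 15205299 per Con-DHT library. In every library, 3 reads correspond to a value between 2.61 and 3.30, and SDs cover differences between mice as well as counting error. Of 14371 features, 54 were spike-ins; symbols were found for 14287 of the 14317 mouse genes in GENCODE M21 (GRCm38), which also gave exon lengths. In that annotation, other genes' exons covered 10.4% of the exon bases of H2-DMa (Brd2, opposite strand), 3.45% of those of Ciita (Dexi, opposite strand) and under 1% of those of the other members.

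Groups and replicate numbers came from the labels. Values + 1 were taken to log2, and the added 1 draws the log2 fold changes of low genes towards 0. The log2 values were compared with limma 3.58.1 (intensity trend) in R 4.3.3 over the 14312 genes with a mean of at least 10. The threshold was 0.05 after Benjamini-Hochberg adjustment. edgeR 4.0.16 and DESeq2 1.42.0 were run on the whole reads. Other alternatives were pseudocounts of 0.1 and 5, a minimum mean of 50 or none, spike-in scaling, quantile normalization, an equal total without Mup genes, no trend, the replicate number as a block and leaving out each mouse. The scripts were tested on simulated data. Libraries of a group differed by more than sampling noise (chi-square per degree of freedom between 19.2 and 61.6 in 12 pairs), so none was a duplicate. No sequencing batch is given in the sources used here.

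The 10 members and the lists were chosen with earlier results of these data known, so that no list is independent evidence. Named were all members, each called gene and the largest and smallest log2 fold change of each pathway list, each called gene and the highest mean of each marker list, and the 5 genes most like each class. Rfxank, H2-Q10, Ebf1, Creb1 and Gzma were named after their values were seen. Promoters came from a RefSeq table (GRCm38.p6). Python 3.11.15, pandas 2.3.3 and matplotlib 3.10.9 were used.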

Additional observations from a re-analysis of the deposited data

Results flagged for a closer look

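Among 112 groups of 4 livers (56 named genes in 2 groups), 2 had a liver whose gap to the nearest other exceeded Dixon's 95% value, where chance flags about 1 group in 20. Vsig4, a complement receptor of Kupffer cells, had a normalised read count of 389 in Con-DHT 1, against 287 to 295 in the other Con-DHT livers. Zbtb46, a transcription factor of classical dendritic cells, had 69.7 in Con-DHT 2, against 86.8 to 87.3 in the others. Con-DHT 1 was also the liver with the highest class II sum.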

How the results depend on the processing

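With 4 mice in each group, changes of class II genes within their large spread could not be detected, and Ciita rests on 1 to 33 reads per library. Without a filter, with a mean of at least 50, with either pseudocount, with quantile normalization and with edgeR, the count of called members stayed at 1. Over all genes, 1032 were called, against 648 with a mean of at least 50, 637 with spike-in scaling, 1569 with DESeq2, 700 with the replicate number as a block and 633 to 905 with a mouse left out. The calls split into 658 higher and 374 lower, against 562 higher and 75 lower with spike-in scaling and 1082 higher and 208 lower with an equal total without Mup genes. The replicate numbers did not pair the mice (correlations of same-numbered mice from -0.186 to -0.006). Called members numbered 0 with spike-in scaling, an equal total without Mup genes, no trend and the replicate block, 3 with DESeq2 and 0 to 1 with a mouse left out (0 without Con-Veh 1, Con-Veh 2, Con-DHT 1, Con-DHT 2 or Con-DHT 4). All 109 log2 fold changes of members in the other alternatives and all 80 with a mouse left out were below 0. The settings without a filter, with a mean of at least 50, without the trend and with the replicate block kept the log2 fold changes of the main fit. Their signs were therefore fixed in advance, and the other settings reuse the same livers, so these counts are not independent evidence of direction.

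With spike-in scaling the called genes were 1 class I heavy chain gene (H2-Q2, higher), 0 of the immunoproteasome, 0 of class II processing, 0 transcription factors, 0 of the interferon-gamma response and 0 Kupffer cell markers, and the cause was not tested. With an equal total without Mup genes they were 3 heavy chain genes, 0 of the immunoproteasome, 0 transcription factors and 1 of the interferon-gamma response. Without the trend they were 3, 0, 0 and 0, with 3 of class II processing. The replicate block left 3 of class II processing and 0 of the interferon-gamma response, and the mean of at least 50 left 1 of the latter. DESeq2 gave 8 heavy chain (7 lower, and H2-Q2 higher), 1 loading and 3 immunoproteasome genes. With a mouse left out the ranges were 3 to 5 heavy chain, 0 loading, 0 to 1 immunoproteasome, 0 class II chain, 3 to 5 class II processing, 0 to 1 transcription factor and 0 to 2 interferon-gamma genes and 4 to 9 Kupffer markers. The Kupffer count was 4 without Con-Veh 2.

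Directions turned for 8 genes, none of them called in any fit. With spike-in scaling and an equal total without Mup genes, Psmb9 had 0.14 and 0.036 and Zbtb46 0.13 and 0.0313, and with quantile normalization Alb had 0.13. With a mouse left out, log2 fold changes ranged from -0.048 to 0.11 for Tap1, from -0.19 to 0.0344 for Psmb9, from -0.0134 to 0.13 for Nfyc, from -0.14 to 0.0314 for Zbtb46, from -0.97 to 0.18 for Derl3, from -0.096 to 0.0572 for Spp1 and from -0.0526 to 0.44 for Ecm1. With the longest transcript, 11 of 20 levels per kilobase moved by more than 1 SD.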
